A study of Sus scrofa with 2 samples.

Results

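Retinoid metabolism was described through 4 genes, STRA6, RBP4, DHRS3 and ALDH1A1, out of 21301 features listed in single-cell RNA-seq counts of pig back muscle. The genes were picked by name from the deposited symbol column, and all 4 were listed. They cover uptake, binding, reduction and acid synthesis. They were proposed with earlier readings of these counts known, so their levels are given as a description, with no test. The cells came from the longissimus dorsi, the long muscle of the back, of piglets, with 1 library from the Guangdong small-eared spotted pig, or GDSS, and 1 from Yorkshire, a white commercial breed. No treatment or genetic change is given for either breed. Per the labels the cells were vascular stem cells from within the muscle, after lysis of red blood cells and bead removal of dead cells. How many piglets entered each library, and what "P0" in the titles stands for, is not given in the sources used here. Breed therefore cannot be told apart from animal, dissection or library, and the ranges printed are 95% intervals that cover counting error alone.

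Vitamin A travels in blood as retinol bound to retinol-binding protein 4, the product of RBP4, and STRA6 is the membrane receptor that moves retinol from that carrier into cells. Inside the cell, dehydrogenases such as RDH10 oxidise retinol to retinaldehyde, and DHRS3 reduces retinaldehyde back to retinol. The aldehyde dehydrogenases ALDH1A1, ALDH1A2 and ALDH1A3 oxidise retinaldehyde to retinoic acid, which acts through the RAR and RXR nuclear receptors and is cleared by CYP26 enzymes. DHRS3 is itself a known target of retinoic acid in other vertebrates. In mouse tissues retinoic acid is known to act on muscle regeneration and on the formation of fat cells from stromal progenitors.

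The filters kept 10649 GDSS and 12762 Yorkshire cells, whose medians were 2882 and 3005 UMIs (unique molecular identifiers, 1 per captured transcript). Cells were gated into 7 classes on marker genes that include none of the 4 members. The label of stem cells did not cover what the gates found. Stromal cells (marked by PDGFRA, DCN and LUM) were 70.6% of GDSS and 15.5% of Yorkshire cells, and satellite cells (PAX7, MYF5) 3.34% and 25.9%. Endothelial cells were 2.52% and 12.5%, mural cells, the smooth muscle cells and pericytes of vessel walls, 3.37% and 6.09%, and 13.2% of GDSS and 32.5% of Yorkshire cells met no gate. Glia, macrophages and myofibre fragments gave 130 to 539 cells per library. Collagen gene COL3A1, MFAP4 and SERPINF1, kept out of the gates, summed to 12457 CPM (UMIs of a gene per 1000000 UMIs of the same cells) in GDSS and 10139 in Yorkshire stromal cells. The adipocyte genes ADIPOQ, PLIN1 and LEP together reached 15.1 and 9.68 CPM there, and their part in any result below was not tested. Of the barcodes, 47 occurred in both libraries.

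STRA6, the uptake receptor, was close to the limit of detection. It had 23 UMIs in GDSS and 24 in Yorkshire over all kept cells. In stromal cells this was 0.847 CPM (0.537 to 1.27) in GDSS and 1.11 CPM (0.533 to 2.05) in Yorkshire, on 23 and 10 UMIs. No UMI fell in satellite, endothelial, glia, macrophage or myofibre cells of either library. A count of 0 there allows at most 3.09 CPM in GDSS and 0.274 CPM in Yorkshire satellite cells, and at most 2.34 and 0.383 CPM in endothelial cells. Those Yorkshire limits lie below the Yorkshire stromal level. The Yorkshire limits in glia, macrophages and myofibre fragments, at 3.47, 2.55 and 2.08 CPM, lie above that level. The GDSS limits lie above the GDSS stromal level. Absence was therefore not detectable at that depth in GDSS, nor in those last Yorkshire classes.

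The STRA6 UMIs came from few cells. They lay in 11 GDSS cells, all in the stromal gate, and in 13 Yorkshire cells, of which 5 were stromal, 7 ungated and 1 mural. The most in a single cell was 5 in each library. A UMI of CLDN1, ITGB4 or ANGPTL7, genes of the perineurial cells that sheathe nerves, was found in 7 of the 11 GDSS and 8 of the 13 Yorkshire cells. In the stromal class as a whole it was found in 14.02% of GDSS and 15.1% of Yorkshire cells. For Yorkshire this class, the baseline throughout this paragraph, holds only 5 of the 13 STRA6 cells, so the sets compared are unlike. PI16 or CCL26, genes of a stromal progenitor state, had a UMI in 11 of 11 and 11 of 13 of the STRA6 cells, against 43.8% and 29.0% of stromal cells. These cells had median totals of 3812 and 5046 UMIs, above the stromal medians of 3099 and 3964, and the part of depth in these shares was not tested. KRT8 or KRT18, keratin genes, had a UMI in 0 of the 11 GDSS and 2 of the 13 Yorkshire STRA6 cells. In stromal cells the shares were 0.0266% and 1.52%. All of these marker lists were looked at after the values were seen. By the state gates, the PI16 and CCL26 progenitors held 8 STRA6 UMIs in 5 GDSS cells and 2 in 1 Yorkshire cell. The state gated on CLDN1, ITGB4 and ANGPTL7 held 4 in 1 GDSS cell and 1 in 1 Yorkshire cell. Stromal cells of no state held 10 in 4 GDSS cells and 7 in 3 Yorkshire cells. The IRF8 and PBK state held 1 STRA6 UMI in GDSS. The MME and FMO2, FMO1 and AOX1, THBS4 and KERA, and HHIP and ART4 states held 0 in either library.

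**Figure D1:**
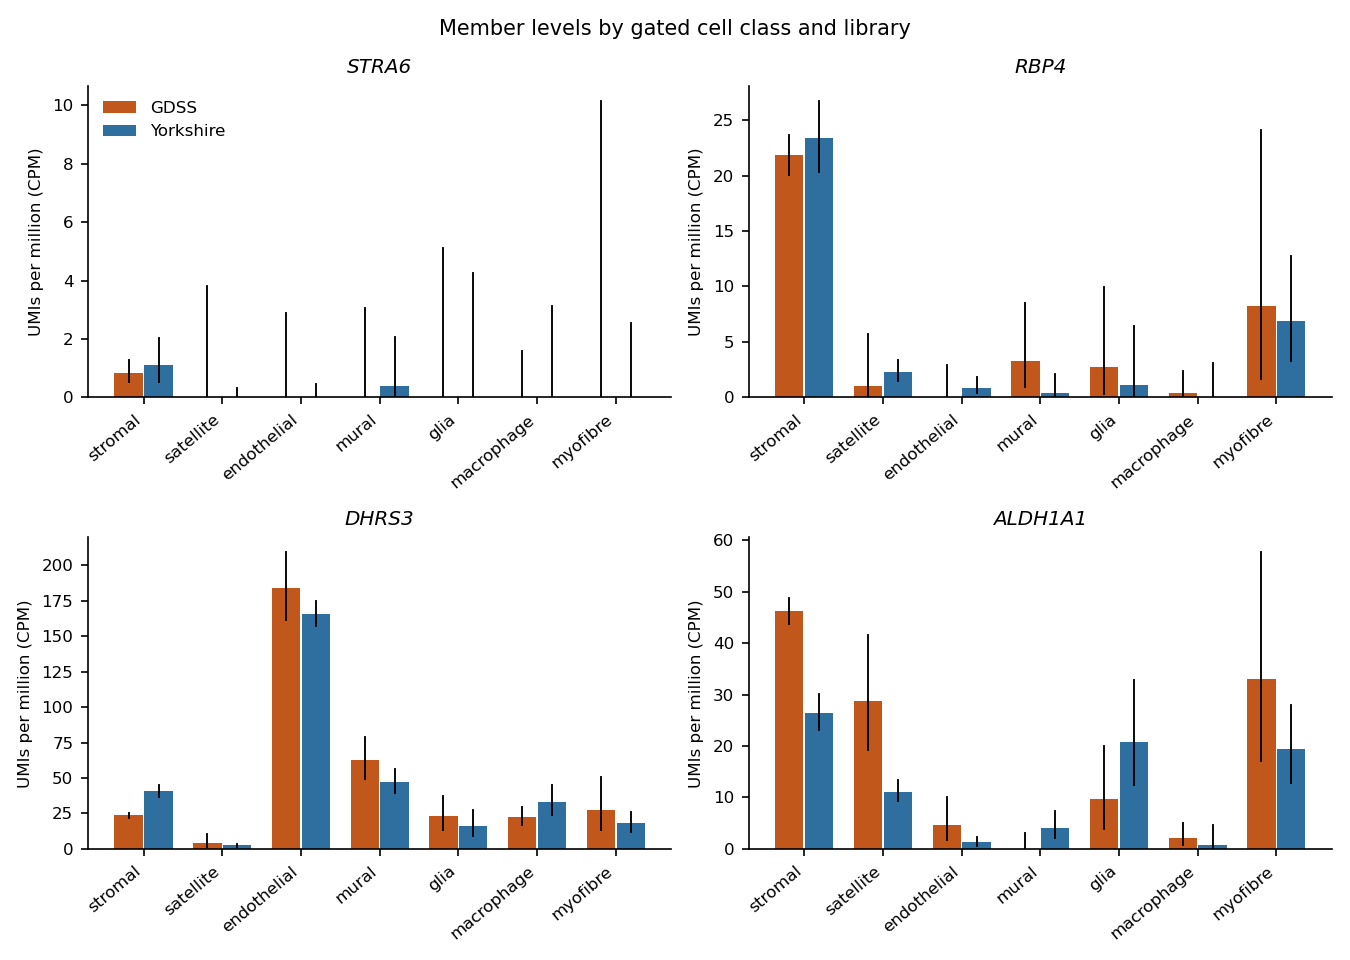
CPM of each member (y axis, linear, own scale per panel) in the 7 gated classes (x axis), GDSS orange on the left and Yorkshire blue on the right, with black lines for the 95% Poisson interval. DHRS3 is highest in endothelial cells at 184 and 166 CPM, RBP4 in stromal cells at 21.8 and 23.4 CPM, and ALDH1A1 in stromal cells at 46.2 and 26.5 CPM.

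RBP4, the retinol carrier, was a stromal transcript in both libraries. It reached 21.8 CPM (20.1 to 23.6) in GDSS and 23.4 CPM (20.3 to 26.7) in Yorkshire stromal cells, on 592 and 210 UMIs. The stromal level was 13.6 times (7.57 to 27.5) that of the other 6 gated classes together in GDSS and 13.2 times (9.52 to 18.8) in Yorkshire. Stromal cells held 91.1% of the RBP4 UMIs of all kept GDSS cells and 66.0% of those of Yorkshire. Myofibre fragments came next at 8.25 CPM (1.70 to 24.1) and 6.93 CPM (3.32 to 12.7), on 3 and 10 UMIs, and in GDSS that interval reaches the stromal one. In Yorkshire 5 of the 10 UMIs sat in 1 cell, and the level without it was 3.49 CPM. The other 5 classes had at most 3.31 CPM, in an order that was not shared. In GDSS mural cells led them with 4 UMIs, and in Yorkshire satellite cells led them at 2.29 CPM. The intervals of those 5 classes overlap within GDSS, on 0 to 4 UMIs each. RBP4 and ALDH1A1 were the members at least 2-fold higher in stromal than in other gated cells in both libraries, STRA6 being under the minimum of 100 UMIs. So were 10.5% of genes with at least 100 UMIs in GDSS and 9.13% in Yorkshire.

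Transcripts released from broken cells can give RBP4 counts outside the stroma. The median level of the 3 stromal check genes was 40.8% of the stromal level in GDSS and 11.9% in Yorkshire myofibre fragments. Scaled by those shares, stromal RBP4 would give 8.89 and 2.79 CPM there, so the GDSS myofibre value does not exceed that background. The Yorkshire myofibre value of 6.93 CPM lies above it. In Yorkshire satellite cells the same estimate was 0.286 CPM, against 2.29 measured. The check genes differed there, with COL3A1 at 1011 CPM against 7894 in Yorkshire stroma and SERPINF1 at 17.6 against 1433. The part of carried-over RNA in these levels was not tested. In GDSS endothelial cells, where RBP4 had 0 of 1281492 UMIs, the limit was 2.34 CPM. At 1500 UMIs per cell, RBP4 was detected in 2.60% of GDSS and 2.72% of Yorkshire stromal cells. The unthinned shares were 4.73% and 6.74%, against 0% and 0.312% in endothelial cells with median totals of 2848 and 3132 UMIs.

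Within the stroma RBP4 was uneven. The state gated on HHIP, ART4 and SFRP4, where HHIP is a hedgehog pathway inhibitor and target, had 75.0 CPM (59.5 to 93.4) in 246 GDSS cells and 98.5 CPM (67.8 to 138) in 70 Yorkshire cells. That was 3.82 times (2.98 to 4.85) the level of the other stromal cells in GDSS and 4.82 times (3.22 to 7.01) in Yorkshire. Fibroblasts gated on THBS4, KERA and COL11A1, matrix genes of tendon and connective tissue, followed at 58.4 CPM (49.1 to 69.0) and 35.7 CPM (27.3 to 45.8). Stromal cells of no state had 16.4 and 22.8 CPM. The PI16 and CCL26 progenitors had 13.998 and 13.04 CPM, the FMO1 and AOX1 cells 10.6 and 9.03, and the MME and FMO2 progenitors 2.44 and 11.1. Those 3 states overlap in their intervals in Yorkshire. In GDSS the MME and FMO2 state, at 4 UMIs, was the lowest, and its interval of 0.665 to 6.25 overlaps that of the FMO1 and AOX1 cells. The IRF8 and PBK cells had 14.7 CPM in GDSS, or 6.93 without the cell that held 16 of their 30 UMIs. The CLDN1 and ITGB4 cells read 56.6 CPM in GDSS and 13.1 in Yorkshire, but 31 of the 37 GDSS UMIs sat in 1 cell and 5 of the 7 Yorkshire UMIs in another. Without those cells the levels were 9.26 and 3.78 CPM.

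**Figure D2:**
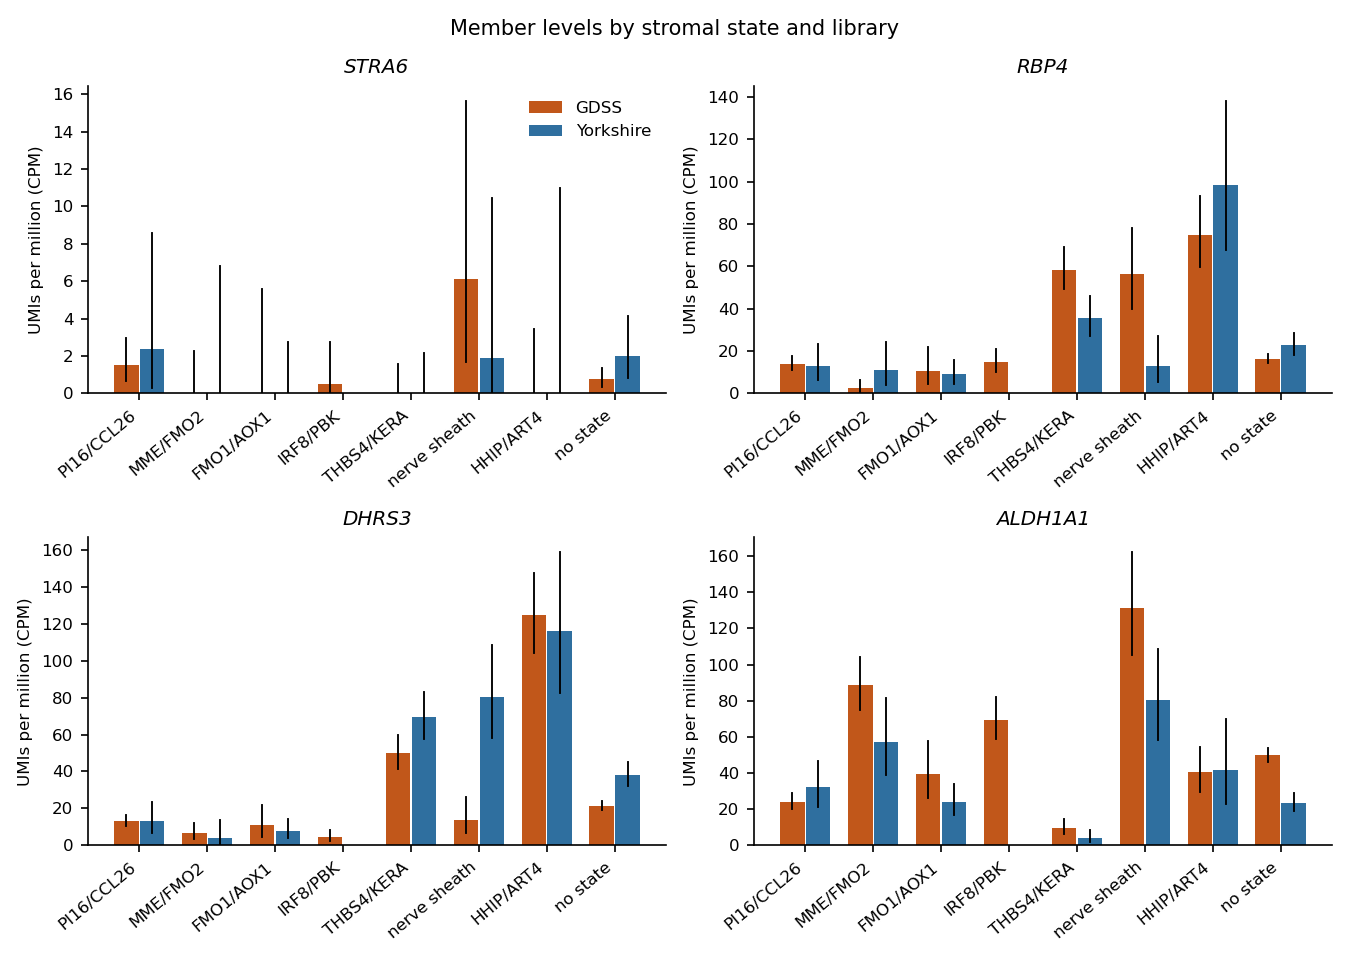
CPM of each member (y axis, linear, own scale per panel) in stromal states gated on the genes named along the x axis, GDSS orange on the left and Yorkshire blue on the right, with black lines for the 95% Poisson interval. "Nerve sheath" is the state gated on CLDN1, ITGB4 and ANGPTL7, and Yorkshire IRF8 and PBK cells are not drawn because there were 14 of them. RBP4 and DHRS3 are highest in the HHIP and ART4 state and ALDH1A1 in the nerve sheath and MME and FMO2 states.

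DHRS3, which returns retinaldehyde to retinol, was highest in endothelium. It had 184 CPM (161 to 209) in GDSS and 166 CPM (157 to 175) in Yorkshire endothelial cells, on 236 and 1301 UMIs. This was 7.51 times (6.47 to 8.69) the other gated classes together in GDSS and 7.21 times (6.54 to 7.96) in Yorkshire. Of genes with at least 100 UMIs, 11.0% in GDSS and 11.1% in Yorkshire were at least 2-fold higher in endothelial than in other gated cells, and DHRS3 was the one member among them. At 1500 UMIs per cell it was detected in 25.6% of GDSS and 26.5% of Yorkshire endothelial cells, against 0.327% and 0.400% of satellite cells. The unthinned shares were 49.6% and 48.9% in endothelial and 0.843% and 0.815% in satellite cells, with median totals of 2848 and 3132 against 2384 and 2994 UMIs.

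The order below endothelium was shared in part. Mural cells had 62.9 CPM (49.6 to 78.8) in GDSS and 47.5 CPM (39.6 to 56.5) in Yorkshire. Stromal cells had 23.7 CPM (21.9 to 25.6) and 40.8 CPM (36.7 to 45.2), a level whose interval overlaps that of mural cells in Yorkshire and not in GDSS. Macrophages had 22.7 and 33.2 CPM, myofibre fragments 27.5 and 18.0, and glia 23.5 and 16.2, with overlapping intervals in each library. The macrophage gate also held markers of other blood cells, whose part in its levels was not tested: the mast cell genes KIT and MS4A2 summed there to 195 CPM in GDSS and 133 in Yorkshire, the neutrophil genes S100A8 and CSF3R to 69.8 and 109, and the T cell genes CD3E and CD2 to 16.7 and 23.0. Satellite cells were lowest at 4.12 CPM (1.12 to 10.5) and 2.47 CPM (1.63 to 3.59). Endothelial cells held 20.98% of the DHRS3 UMIs of all kept GDSS cells, against 64.1% in Yorkshire. By the median level of the 3 endothelial check genes, carried-over RNA would give 17.0 and 3.93 CPM in mural cells. For stromal cells it would give 1.56 and 0.997 CPM. These estimates lie below the measured levels, but the genes differed in GDSS mural cells. FABP4 had 900 CPM there against 2525 in GDSS endothelium, AQP1 66.3 against 1095, and VWF 16.6 against 179. The part of carried-over RNA in the GDSS mural level was not tested.

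DHRS3 also differed between kinds of vessel cell, in gates that were added after its values were seen. Endothelial cells with the capillary genes CA4, RGCC and CD36 had 257 CPM (219.9 to 299.6) in 189 GDSS cells and 248 CPM (231.7 to 264) in 1074 Yorkshire cells. Those with the arterial genes GJA5, SEMA3G and HEY1 had 67.8 CPM (32.5 to 125) in 16 and 110.3 CPM (91.5 to 132) in 124 cells. Those with the venous genes ACKR1, SELP and VCAM1 had 22.6 CPM (7.35 to 52.9) in 20 and 25.3 CPM (17.9 to 34.7) in 123 cells. The order from capillary to arterial to venous was seen in both libraries, although the arterial and venous intervals overlap in GDSS. Cells with the lymphatic genes PROX1, MMRN1 and LYVE1 had 320.6 CPM (207 to 473) in 11 GDSS cells and 140.0 CPM (107 to 179.8) in 51 Yorkshire cells.

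In the vessel wall, mural cells with a UMI of MYH11, the smooth muscle myosin, had 100.5 CPM (77.4 to 128) in GDSS and 64.0 CPM (52.4 to 77.4) in Yorkshire. Mural cells with RGS5, a pericyte gene, and no MYH11 UMI had 9.44 CPM (2.57 to 24.2) and 7.48 CPM (2.43 to 17.4), on 4 and 5 UMIs, and the GDSS level lies under the 17.0 CPM estimated for carried-over RNA in mural cells. The ratio of the MYH11 cells over the RGS5 cells was 10.7 (3.96 to 40.3) in GDSS and 8.56 (3.55 to 26.9) in Yorkshire. Of genes with at least 100 UMIs, 7.34% in GDSS and 6.66% in Yorkshire were at least 2-fold higher in the MYH11 cells. The endothelial genes VWF, FABP4 and AQP1 summed to 752 and 735 CPM in the MYH11 cells and to 880 and 1005 CPM in the RGS5 cells, so they were not higher in the MYH11 cells. Within the MYH11 cells they were higher in those with a DHRS3 UMI, at 839 and 920 CPM, than in those without, at 693 and 688 CPM, and the part of this in the result was not tested. In glia, cells with PRX or at least 10 UMIs of MBP, both genes of myelinating Schwann cells, had 65.3 CPM (35.7 to 109.6) in GDSS and 26.3 CPM (13.99 to 44.9) in Yorkshire. The remaining glia had 5.89 and 2.71 CPM, on 3 and 1 UMIs.

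**Figure D3:**
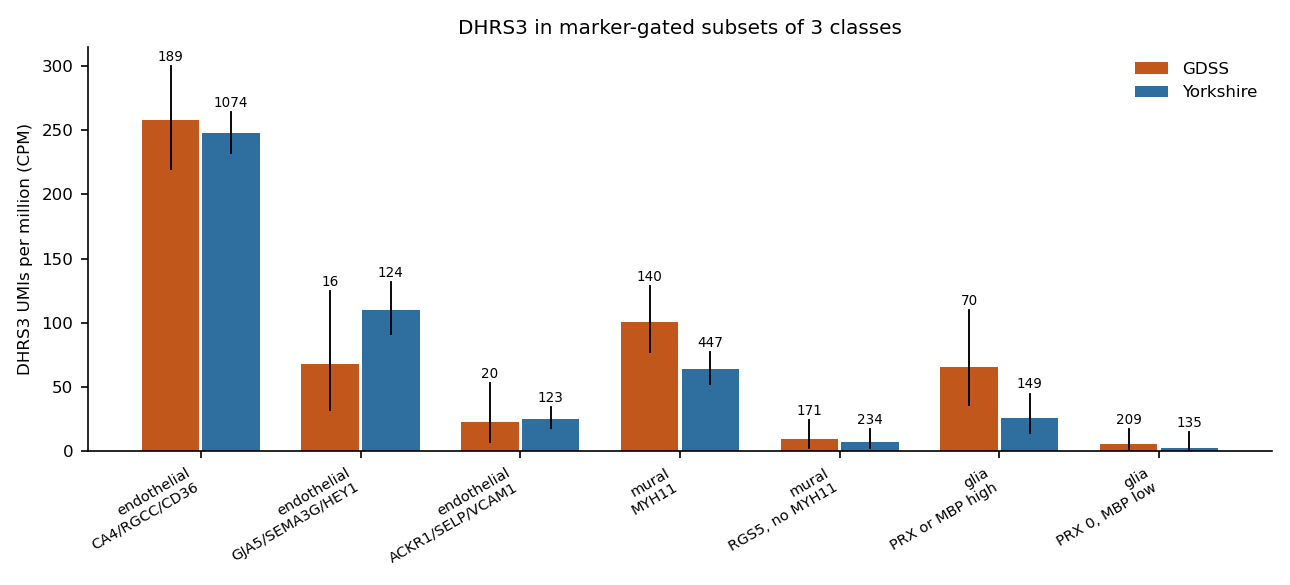
DHRS3 CPM (y axis, linear) in marker-gated subsets of endothelial, mural and glial cells (x axis), GDSS orange on the left and Yorkshire blue on the right. Black lines are 95% Poisson intervals and the small numbers are cells. The endothelial subset with PROX1, MMRN1 and LYVE1, at 320.6 CPM in GDSS and 140.0 in Yorkshire, is not drawn. The capillary-gene subset stands at 257 and 248 CPM and the venous-gene subset at 22.6 and 25.3 CPM, and mural cells with MYH11 stand above those with RGS5 alone in both libraries.

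Among stromal states DHRS3 led in the cells where RBP4 led. The HHIP and ART4 cells had 125 CPM (104 to 148) in GDSS and 116 CPM (82.8 to 159) in Yorkshire. That was 6.38 times (5.23 to 7.73) and 3.07 times (2.15 to 4.29) the other stromal cells. Without the cell with most DHRS3 UMIs in each library the levels were 114 and 95.2 CPM. The THBS4 and KERA fibroblasts had 50 CPM (41.4 to 59.8) and 69.6 CPM (57.6 to 83.3), 2.36 and 2.04 times the rest. In the HHIP and ART4 state RBP4 and DHRS3 were at least 2-fold higher than in other stromal cells in both libraries, as were 2.05% of genes with at least 100 UMIs in GDSS and 4.21% in Yorkshire. In the THBS4 and KERA state both were at least 2-fold higher in GDSS, where 2.92% of genes were. In Yorkshire DHRS3 was, and RBP4 stood at 1.74 times (1.27 to 2.36), where 1.79% of genes were. The endothelial check genes summed to 15.9 and 71.6 CPM in the HHIP and ART4 cells, and to 80.7 and 99.4 CPM in the THBS4 and KERA fibroblasts, against 3799 and 8869 CPM in endothelium. In the HHIP and ART4 cells with a DHRS3 UMI they summed to 6.08 and 108 CPM, against 20.3 and 53.5 CPM in those without. The part of these sums in the result was not tested.

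In most remaining states DHRS3 was below its stromal mean. The PI16 and CCL26 progenitors had 13.05 CPM in GDSS, against 13.04 CPM in Yorkshire. The FMO1 and AOX1 cells had 10.6 and 7.52, and the MME and FMO2 progenitors 6.71 and 3.69. Cells with the tendon genes TNMD, SCX and MKX, 23 in each library, had 41.8 and 69.3 CPM on 4 and 9 UMIs. The IRF8 and PBK cells, a state with 527 GDSS and 14 Yorkshire cells, had 4.40 CPM in GDSS. The CLDN1 and ITGB4 cells differed between the libraries, at 13.8 CPM (6.29 to 26.1) in GDSS and 80.6 CPM (58.3 to 109) in Yorkshire, a ratio of 0.17 (0.07 to 0.36). It rested on 9 UMIs in 7 of 162 GDSS cells and 43 UMIs in 18 of 97 Yorkshire cells, and without the richest cell of each the levels were 10.8 and 70.02 CPM. In that state 7.17% of genes with at least 100 UMIs were at least 2-fold higher in Yorkshire, a set from which DHRS3 is missing because its UMIs were fewer. The endothelial check genes summed to 130 CPM in these GDSS cells and 78.7 CPM in these Yorkshire cells.

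ALDH1A1, the retinaldehyde dehydrogenase, was mainly stromal, with a lower level in muscle cells. Stromal cells had 46.2 CPM (43.7 to 48.9) in GDSS and 26.5 CPM (23.2 to 30.1) in Yorkshire, on 1255 and 238 UMIs. This was 5.49 times (4.22 to 7.27) the other gated classes in GDSS and 3.47 times (2.86 to 4.22) in Yorkshire. Myofibre fragments had 33.0 CPM (17.1 to 57.7) and 19.4 CPM (12.9 to 28.0), and satellite cells 28.8 CPM (19.2 to 41.7) and 11.2 CPM (9.27 to 13.3). Glia had 9.67 CPM (3.89 to 19.9) and 20.8 CPM (12.3 to 32.9), and endothelial, mural and macrophage cells at most 4.68 CPM. In mural cells the count was 0 in GDSS, which allows up to 2.48 CPM, and 11 UMIs in Yorkshire, 4 of them in 1 cell. The myofibre interval overlaps those of stromal cells, satellite cells and glia in both libraries. Of the Yorkshire ALDH1A1 UMIs, 34.9% were in stromal, 17.9% in satellite and 37.2% in ungated cells, whereas in GDSS 90.7% were in stromal cells. Ungated cells had 18.9 CPM (14.8 to 23.9) in GDSS and 19.0 CPM (16.7 to 21.4) in Yorkshire. In a joint clustering of both libraries, the largest cluster labelled satellite held 4532 cells, of which 2136 met a gate. The satellite levels given here cover gated cells alone, and the part of ungated satellite cells was not tested.

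Carried-over stromal RNA would give 1.94 CPM of ALDH1A1 in GDSS and 0.324 CPM in Yorkshire satellite cells, below the measured levels. The same estimate for myofibre fragments was 18.8 and 3.16 CPM, which lies inside the GDSS interval. Yorkshire myofibre fragments with an ALDH1A1 UMI summed to 4805 CPM over the 3 stromal check genes, against 1226 CPM in those without. In GDSS the sums were 4074 and 4296 CPM. For satellite cells the sums were 1807 CPM in GDSS and 1197 CPM in Yorkshire with an ALDH1A1 UMI, against 1187 and 1029 CPM without. The part of these sums in the results was not tested. Satellite cells with a UMI of MYOD1, the myogenic factor of activated cells, had 27.7 CPM in GDSS and 12.9 CPM in Yorkshire. Those with PAX7 and no MYOD1 had 20.7 and 11.2 CPM. The ratio of the MYOD1 over the PAX7 cells, 1.34 (0.42 to 4.33) and 1.16 (0.75 to 1.83), had an interval that spans 1 in both libraries. At 1500 UMIs per cell ALDH1A1 was detected in 7.09% of GDSS and 3.87% of Yorkshire stromal cells. The unthinned shares were 12.0% and 8.77%, against 1.12% and 0.375% in endothelial cells.

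The order of stromal states by ALDH1A1 level differed from that by DHRS3 level. The CLDN1 and ITGB4 cells were highest at 131 CPM (105 to 162) in GDSS and 80.6 CPM (58.3 to 109) in Yorkshire, 2.98 times (2.36 to 3.71) and 3.49 times (2.45 to 4.88) the other stromal cells. The MME and FMO2 progenitors, where MME encodes the peptidase neprilysin, had 88.5 CPM (74.7 to 104) and 57.2 CPM (38.9 to 81.2), 2.03 and 2.34 times the rest. In Yorkshire the intervals of those states overlap. Among genes with at least 100 UMIs, those at least 2-fold above other stromal cells were 7.14% of genes in GDSS and 14.1% in Yorkshire for the CLDN1 and ITGB4 cells, and 0.485% and 1.98% for the MME and FMO2 progenitors. In the CLDN1 and ITGB4 cells RBP4 also passed 2-fold in GDSS, on the 31 UMIs of 1 cell, and DHRS3 in Yorkshire, at 2.10 times (1.49 to 2.90).

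The GDSS IRF8 and PBK cells had 69.4 CPM (58.5 to 81.8) of ALDH1A1, with 1 UMI in the 14 Yorkshire cells. Stromal cells of no state had 49.8 and 23.4 CPM. The HHIP and ART4 cells had 40.3 and 41.8 CPM, the FMO1 and AOX1 cells 39.5 and 24.1, and the PI16 and CCL26 progenitors 24.0 and 32.0. The THBS4 and KERA fibroblasts were lowest among states with at least 50 cells, at 9.66 CPM (6.13 to 14.5) in GDSS and 4.09 CPM (1.65 to 8.43) in Yorkshire. They stood at 0.19 times (0.12 to 0.29) and 0.13 times (0.05 to 0.27) the other stromal cells. Of the 3 members with at least 100 UMIs, ALDH1A1 was the one at least 2-fold lower there, as were 8.49% of genes in GDSS and 9.34% in Yorkshire. In glia without PRX and with under 10 MBP UMIs, ALDH1A1 had 11.8 CPM (4.32 to 25.6) in GDSS and 48.8 CPM (28.9 to 77.1) in Yorkshire, on 6 and 18 UMIs, with the stromal check genes at 3122 and 4186 CPM. The myelin-gene glia had 1 UMI in GDSS and 0 in Yorkshire.

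Whether members were found in the same cells was read at 1500 UMIs per stromal cell. RBP4 was detected in 9.52% (5.74 to 14.6) of the GDSS cells with a DHRS3 UMI and in 2.41% (2.06 to 2.80) of those without. In Yorkshire the shares were 7.23% (2.70 to 15.1) and 2.51% (1.85 to 3.34). With an ALDH1A1 UMI, RBP4 was detected in 0.797% (0.218 to 2.03) of GDSS cells, against 2.74% (2.35 to 3.16) without. In Yorkshire these were 2.70% (0.329 to 9.42) and 2.72% (2.02 to 3.57), where 2 cells held both. DHRS3 was detected in 1.59% (0.690 to 3.12) of GDSS cells with an ALDH1A1 UMI, against 2.75% (2.37 to 3.17) without. In Yorkshire these shares were 6.76% (2.23 to 15.1) and 4.24% (3.37 to 5.26), the opposite order, with overlapping intervals in each library.

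Set side by side within stromal cells, the libraries differed by member and not in 1 direction. ALDH1A1 was 1.75 times (1.52 to 2.01) as high in GDSS as in Yorkshire, and DHRS3 0.58 times (0.51 to 0.66). RBP4, at 0.93 (0.80 to 1.10), and STRA6, at 0.76 (0.35 to 1.79), had intervals that span 1. None of the 4 was 2-fold apart. Of 9942 genes with at least 100 UMIs, 2.53% passed 2-fold in favour of GDSS and 4.41% in favour of Yorkshire, and the median log2 ratio of all of them was -0.10. The states that make up the stroma also differed. The FMO1 and AOX1 cells were 2.46% of GDSS and 16.2% of Yorkshire stromal cells, the THBS4 and KERA fibroblasts 6.73% and 15.1%, and the IRF8 and PBK cells 7.01% and 0.710%. With equal weight for each state the ALDH1A1 ratio was 0.54 on the log2 scale in place of 0.80, and the DHRS3 ratio -0.45 in place of -0.78.

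The ratios were not even across states. ALDH1A1 was higher in GDSS in the stromal cells of no state, at 2.13 times (1.69 to 2.71), in the CLDN1 and ITGB4 cells at 1.63 times (1.12 to 2.41) and in the MME and FMO2 progenitors at 1.55 times (1.04 to 2.36). In the HHIP and ART4 cells it was 0.97 times (0.52 to 1.91) and in the PI16 and CCL26 progenitors 0.75 times (0.49 to 1.18) the Yorkshire level. DHRS3 was lower in GDSS in the cells of no state, at 0.56 times (0.45 to 0.69), and in the THBS4 and KERA fibroblasts, at 0.72 times (0.55 to 0.93). It stood at 1.00 (0.53 to 2.10) in the PI16 and CCL26 progenitors and 1.07 (0.75 to 1.57) in the HHIP and ART4 cells. RBP4 was 1.64 times (1.20 to 2.25) as high in GDSS in the THBS4 and KERA fibroblasts and 0.72 times (0.55 to 0.94) as high in cells of no state. In the CLDN1 and ITGB4 cells its ratio of 4.31 (1.90 to 11.5) rested on the GDSS cell with 31 UMIs. Differences between these ratios were not tested.

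Outside the stroma, ALDH1A1 in satellite-gated cells was 2.58 times (1.65 to 3.92) as high in GDSS as in Yorkshire, on 28 and 122 UMIs. There 2.99% of genes with at least 100 UMIs were at least 2-fold higher in GDSS. The other classes did not share 1 direction. ALDH1A1 stood at 3.67 (1.10 to 11.1) in endothelial cells, on 6 and 10 UMIs. It stood at 1.70 (0.79 to 3.46) in myofibre fragments and 0.46 (0.16 to 1.17) in glia. Mural cells had 0 GDSS and 11 Yorkshire UMIs, and macrophages 5 and 1. DHRS3 stood at 1.11 (0.96 to 1.28) in endothelial, 1.33 (0.98 to 1.77) in mural and 0.68 (0.44 to 1.06) in macrophage cells, each with an interval that spans 1.

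**Figure D4:**
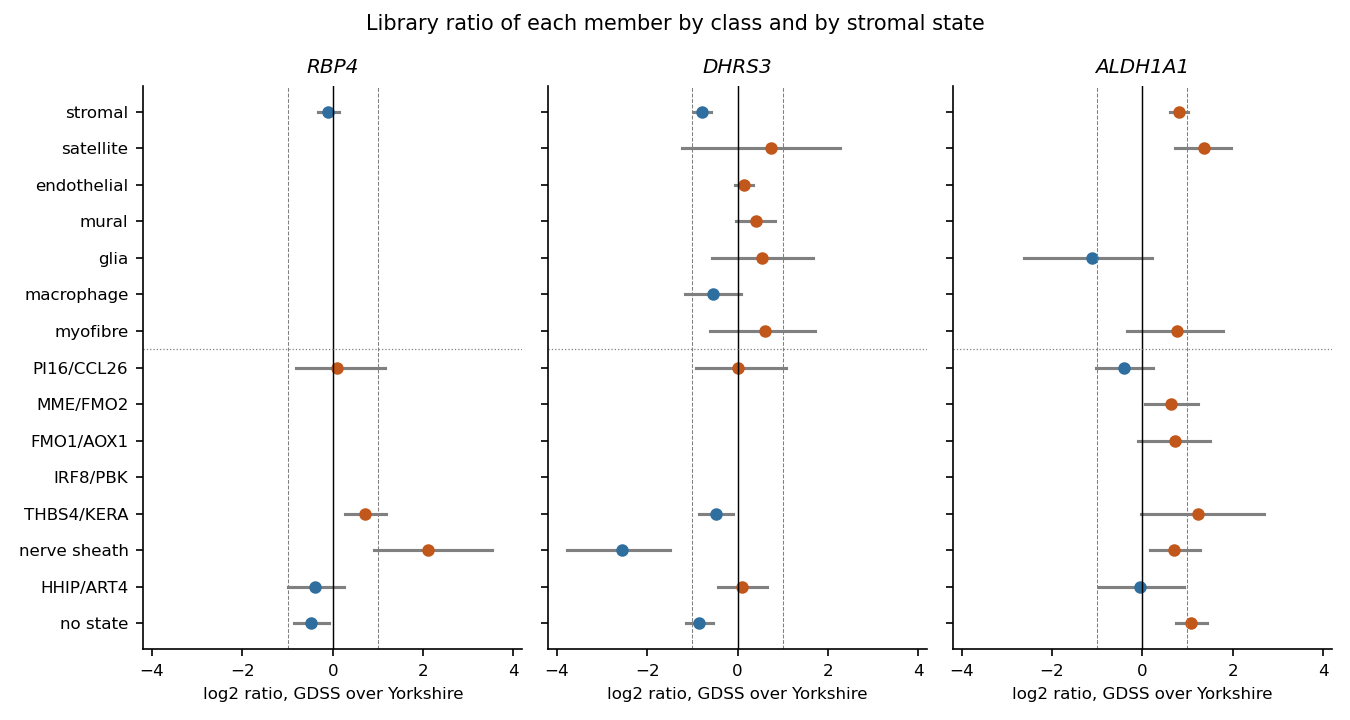
Log2 ratio of GDSS over Yorkshire (x axis) for RBP4, DHRS3 and ALDH1A1 in gated classes, above the dotted line, and stromal states, below it. Points are orange where GDSS is higher and blue where Yorkshire is higher, grey lines are 95% intervals, dashed lines mark a 2-fold difference, and groups with under 20 UMIs in all or under 3 in a library are not drawn. ALDH1A1 lies at 0.80 in stromal cells and DHRS3 at -0.78, while DHRS3 in endothelial cells lies at 0.15. The RBP4 point of the nerve sheath state, at 2.11, rests on 1 GDSS cell.

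A list of 50 further genes of the retinoid pathway was read in the same way. Of these 45 were listed and 30 had at least 100 UMIs in stromal cells. Of these 30, 0 passed 2-fold in favour of GDSS and 3, or 10%, in favour of Yorkshire, with a median log2 ratio of -0.15. Over all genes measured there the shares were 2.53% and 4.41% and the median -0.10. AOX1, an aldehyde oxidase that can act on retinaldehyde, had 4.24 CPM in GDSS and 27.2 in Yorkshire. It is a gate gene of the FMO1 and AOX1 state, a larger share of the stroma in Yorkshire, and was lower in GDSS within that state too, at 35.0 CPM against 96.3 in Yorkshire. It was also lower in GDSS in the other 5 states with at least 50 cells in both libraries. As AOX1 in part sets that gate, its level within each state depends on the gating, whose part was not tested. TGM2, a transglutaminase induced by retinoic acid in human and mouse cells, had 1.95 and 5.89 CPM, on 53 UMIs in each library. It was highest in endothelial cells, at 81.9 and 135 CPM, and the part of carried-over RNA in its stromal levels was not tested. HOXA5, a homeobox gene, had 65.8 and 145.8 CPM.

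By role, the gene of this list with the highest mean of the 2 libraries in stromal cells is given next, with no correction for transcript length. Among genes of carriers and uptake it was FABP5, a fatty acid carrier that can bind retinoic acid, at 80.4 CPM in GDSS and 92.0 in Yorkshire. In endothelial cells FABP5 had 9455 and 9275 CPM. The endothelial check genes stood in stromal cells at a median of 0.845% and 0.601% of their endothelial level. The part of carried-over RNA in the stromal FABP5 levels was not tested. Among the enzymes of retinol and retinaldehyde the highest gene was ADH5, an alcohol dehydrogenase, at 81.3 and 82.3. Among those of retinoic acid, with ALDH1A1 itself not in the list, it was ALDH1A3 at 41.9 and 32.8 CPM. Among receptors it was RARG at 22.4 and 28.0, close to RXRB at 27.04 and 22.9 and RXRA at 17.9 and 28.7, and among targets RARRES2, which encodes the adipokine chemerin, at 518 and 368. The genes that follow were chosen after their values were seen. ALDH1A2 had 19.3 and 11.1 CPM in stromal cells, and like ALDH1A3 was highest there among the classes in both libraries. RDH10, the enzyme that opposes DHRS3, had 47.9 CPM in GDSS and 76.6 in Yorkshire stromal cells and 144 and 253 in the CLDN1 and ITGB4 cells, where CYP26B1 had 7.64 and 43.1. CRABP1, a carrier of retinoic acid in the cell, had 105.5 and 50.9 CPM in the THBS4 and KERA fibroblasts and at most 3.75 CPM in the other gated states with at least 50 cells.

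Other members of the pathway lay in other classes. RBP7, a retinol-binding protein of the cell, had 103 CPM in GDSS and 23.5 in Yorkshire endothelial cells. DHRS9, a dehydrogenase related to DHRS3, had 55.2 and 122 CPM in the macrophage gate, with the other blood cell markers given above, and at most 0.748 CPM in other classes. The receptor RXRG had 102 and 108 CPM in glia and at most 5.54 CPM in other classes, and RARA was highest in the macrophage gate at 123 and 112 CPM.

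**Figure D5:**
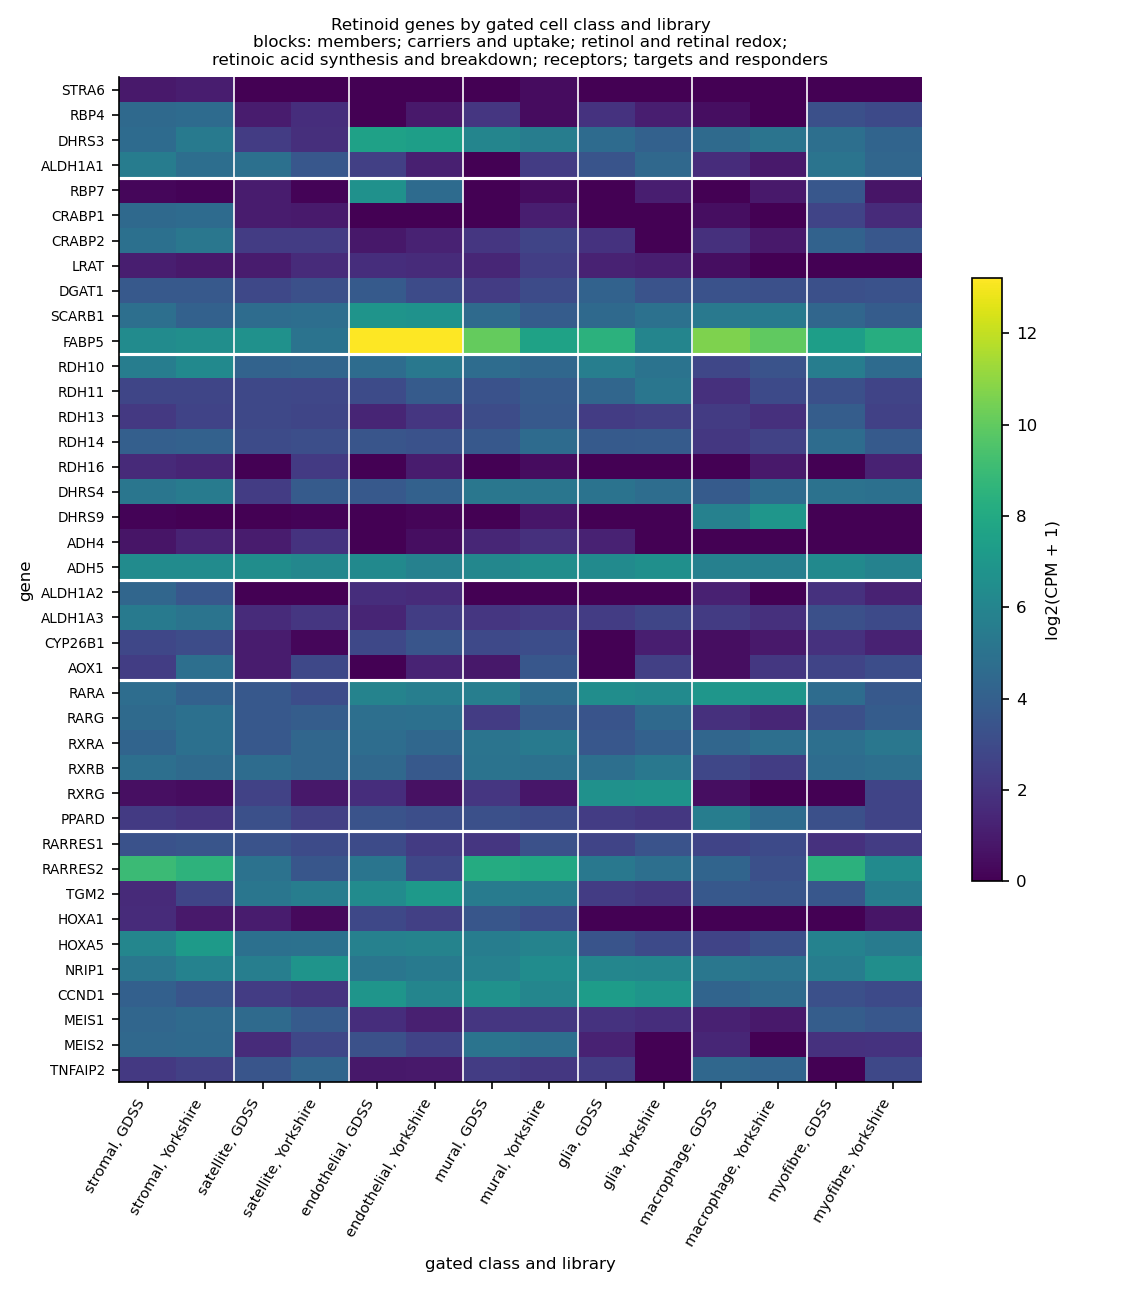
Colour shows log2(CPM + 1) of the 4 members (top block) and of 36 pathway genes with at least 100 UMIs in all kept cells (rows, in blocks by role) in each gated class and library (columns, GDSS left of Yorkshire). Within each library RBP4, ALDH1A1, ALDH1A2, ALDH1A3, CRABP1 and CRABP2 are brightest in the stromal column. ALDH1A1 also stands at 33.0 CPM in GDSS and 19.4 in Yorkshire myofibre fragments. DHRS3, FABP5 and RBP7 are brightest in endothelium, DHRS9 in macrophages and RXRG in glia.

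Likeness of pattern was measured as Pearson's r of log2(CPM + 1) over 27 sums, 1 per class other than stromal, or per stromal state, and library, with at least 50 cells each. These sums share 2 libraries, and the stromal states share the genes of their class, so r is a description. Nearest to RBP4 were COL1A2 at 0.89, CRABP2 at 0.89, COL1A1 at 0.88, EPHA3 at 0.87 and SSC5D at 0.87, of which COL1A2 and COL1A1 are gate genes of the stromal class. Nearest to ALDH1A1 were ALDH3A2 at 0.90, F2RL2 at 0.89, GALNT2 at 0.88, and ABCA8 and GFRA1 at 0.87. For DHRS3 they were CIART at 0.81, SIGIRR at 0.76, ERG at 0.75, RAPGEF4 at 0.74 and STC1 at 0.73. For STRA6, on few UMIs, they were ETV4, MCOLN1 and COL9A1 at 0.70 to 0.69, PODNL1 at 0.65 and MATN4 at 0.62. Between members r was 0.55 for RBP4 and ALDH1A1, 0.097 for RBP4 and DHRS3, and -0.43 for DHRS3 and ALDH1A1.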

How the data were processed

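The values deposited by the authors are raw counts of UMIs for each gene in each barcode. The submitters' processing notes name Cell Ranger, and its version is 3.1.0 per the file headers. The notes also name R 3.5.2. Genome build and annotation are not given in the sources used here. GDSS had 12286 barcodes with 42093851 UMIs, and Yorkshire 14695 with 54300953, at least 500 in each barcode.

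Barcodes with at least 500 genes and at most 10% mitochondrial UMIs were kept, and those with a scrublet score of at least 0.3 were removed as doublets (473 GDSS and 1061 Yorkshire). The automatic threshold marked 0.00814% and 2.65% against an expected 9.83% and 11.8%. Each marker was scaled to its 99th percentile. A cell took the class whose markers had the highest mean, at least 0.1 and 1.5 times the next, with 2 markers detected. A stromal state needed 2 UMIs of its markers and the same margin. Scoring and margin were set after the cells were seen, and a margin of 2 leaves out 190 GDSS and 112 Yorkshire stromal cells. Subset gates were also added then. ERBB3 was dropped from the glia gate because most cells of every class had it.

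Counts were summed per class and library and given as CPM. With 1 library per breed nothing was tested. Intervals are exact at 95% (Poisson for levels, conditional binomial for ratios, Clopper-Pearson for shares) and cover counting error alone. A count of 0 was given the limit of 3 counts. Counts of 2-fold differences cover genes that reached 100 UMIs in the 2 sums compared. The pathway genes named are those 2-fold apart and the one of each role with the highest mean of both libraries, and the 5 genes nearest in pattern had at least 200 UMIs. Values of some pathway genes are not reported here. The ratios and the thinning were tried on simulated data. The members and lists were chosen with earlier results of these data known. Tools were Python 3.11.15, scanpy 1.11.5, scipy 1.17.1, numpy 2.4.6, pandas 2.3.3 and matplotlib 3.10.9, with R 4.3.3 and edgeR 4.0.16 for TMM factors alone. Alternatives covered thinning, mitochondrial and doublet filters, the gate, Leiden clusters, scaling, and weighting of states.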

Additional observations from a re-analysis of the deposited data

How the results depend on the processing

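No paired analysis was possible because each breed had 1 library, and for the same reason no replicate could be left out. On the log2 scale of GDSS over Yorkshire in stromal cells, ALDH1A1 was 0.80, and 1.04 with cells thinned to 1500 UMIs, 0.54 with equal weight per state and 1.09 in cells with no state, a setting chosen after seeing the data. DHRS3 was -0.78, and -0.45 with equal weight per state. RBP4 was -0.10, and 0.20 with equal weight per state and -0.47 in cells with no state. STRA6 was -0.39, and 0.70 with cells thinned, 0.87 with the stricter gate, -1.39 (-2.30 to -0.47) with classes from Leiden clusters and -1.41 in cells with no state. ALDH1A1 and DHRS3 kept their direction in every setting run, while RBP4 and STRA6 changed sign among settings, so no direction is read for them. The cause was not tested. TMM and median-of-ratios factors shifted every gene by 0.17 each. The share of genes at least 2-fold apart was 6.94%, and 11.9% with at least 20 UMIs and 23.6% with no minimum beyond 1 UMI, where low counts enter. Of 648 recomputed levels, 600 stayed inside the interval of the reported value. Depth limits STRA6 and the smaller GDSS classes.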
